A study of Mus musculus with 12 samples.

Results

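The comparison described here sets 3 left ventricles labelled wild type and TAC against 3 labelled T497A and sham, 6 of the 12 mouse libraries in the series. The libraries were taken by their names in the raw counts table, and 2 of the T497A sham columns write the genotype without its first letter. T497A is a point mutant of Prkca, the gene of protein kinase C alpha, in which a threonine is replaced by alanine. Transverse aortic constriction (TAC) narrows the aorta with a tie made over a needle of 27 gauge, and the ventricle then pumps against a higher pressure, and a sham operation omits the tie. All mice had surgery at the age of 10 weeks and gave tissue at 11 weeks, 1 week after surgery. The remaining groups, wild-type sham and T497A TAC, have 3 libraries each and were used for the shared estimate of spread and as reference levels. The 2 groups compared differ in both the genotype label and the surgery, so the effects of genotype and surgery cannot be told apart within this comparison. The labels give cardiomyocyte as cell type but left ventricle as tissue. The titles number 3 hearts in each group, and the p-values cover the spread between the libraries of those hearts.

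Protein kinase C alpha is a calcium- and lipid-activated kinase that acts downstream of receptors coupled to Gq, such as those for angiotensin, endothelin and alpha-adrenergic agonists. Newly made kinase is phosphorylated in its activation loop and C-terminal tail before it can be activated, and the mutated threonine lies in that loop. In cardiac muscle the kinase is known for lowering contractility through phosphatase inhibitor 1, protein phosphatase 1 and phospholamban, the regulator of the calcium pump of the sarcoplasmic reticulum. A pressure-loaded ventricle typically switches on genes of the fetal heart, lays down matrix and lowers its fatty acid oxidation genes.

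Total counts ran from 62882520 to 70502531 in wild-type TAC and from 63024143 to 69523154 in T497A sham, and of 55401 genes 17699 had enough reads to be tested. Levels are TMM-scaled CPM, the reads of a gene relative to all reads of its library, and a difference is the log2 fold change of wild-type TAC over T497A sham with its standard error. A gene is said to rise, fall or be called when its edgeR p, adjusted by Benjamini and Hochberg across the genes tested, is under 0.05. The share of reads on mitochondrially encoded genes was 12.6 ± 2.63% (SD, n = 3) in wild-type TAC and 16.8 ± 0.692% in T497A sham, and wild-type TAC 2 had the lowest share, 9.67%. TMM factors were 1.15, 1.21 and 1.13 in wild-type TAC and 0.972, 0.945 and 0.947 in T497A sham. With library totals in place of TMM factors the median difference of all genes was 0.29, against 0.01 with them, and 77.7% of calls were rises, against 51.0%. Calls with library totals are given beside each list they move by more than 1.5 times.

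Xist and the Y-linked genes separated the groups. Xist, the non-coding RNA that coats the inactive X chromosome, stood at 215, 159.9 and 176 CPM for T497A sham, against 0.722, 0.315 and 0.504 CPM for wild-type TAC. Ddx3y, an RNA helicase gene of the Y chromosome, stood at 0.261, 0.396 and 0.0999 CPM under T497A sham, compared with 81.1, 73.6 and 85.6 CPM under wild-type TAC. All 4 genes of the Y-linked list were higher in wild-type TAC (median log2 fold change 8.38), and 6 of 8 X-linked genes that escape inactivation, Xist among them, were lower (4 with library totals). Of the 7 tested genes on the whole Y chromosome 5 were called higher, and the pseudogene Mid1-ps1 and the gene Gm47283 overlapped between the groups. Among the X-linked genes that escape inactivation, Kdm6a, a histone demethylase gene, fell by 1.18 on the log2 scale. Eif2s3x, a translation initiation factor gene of the same list, fell by 0.88 and Kdm5c, another demethylase gene of it, by 0.54. Xist stood at 0.751, 0.624 and 0.575 CPM in wild-type sham and at 0.683, 0.385 and 0.315 CPM in T497A TAC, so T497A sham was the group of high Xist. The labels give no sex, and sex, genotype and surgery cannot be told apart in the differences that follow. For a set of 104 autosomal transcripts described last, the median position of wild-type TAC on a linear CPM scale lay nearer to T497A sham. That of T497A TAC lay nearer to wild-type sham, and both went against the genotype labels. Whether the genotype labels are right was not tested, and the genotype names used throughout are those of the labels.

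Over all genes tested, 50.2% were called (8891 of 17699). Of these, 4532 were higher in wild-type TAC (25.6%) and 4359 lower (24.6%). Both shares are the background for every list count below. At least 2-fold differences were called for 1897 higher genes (10.7%) and 984 lower genes (5.56%). All 3 wild-type TAC libraries lay above all 3 T497A sham libraries for 5307 genes (30%) and below them for 5034 (28.4%). The first principal component of log2 CPM, 43.5% of the variance, placed wild-type TAC at 75.2, 96.6 and 65.7 and T497A sham at -40.1, -39.9 and -39.5. Wild-type TAC 2 was the farthest from T497A sham on that axis, and its highest values recur in the matrix genes below. With 3 libraries a group an exact permutation p is at least 0.1, and single genes are therefore judged by the edgeR model of all genes.

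Prkca itself, ENSMUSG00000050965.14, GRCm38 chromosome 11, 107933387 to 108343928, minus strand, came out higher in wild-type TAC. It stood at 35.7, 34.7 and 31.1 CPM with T497A sham and at 49.2, 50.7 and 51.01 CPM with wild-type TAC, with no overlap between the groups. The difference was 0.57 ± 0.07, a fold of 1.49 (adjusted p = 1.3e-05). Wild-type sham stood between them at 44.4 ± 2.68 CPM (SD, n = 3). The sham groups differed by -0.39 ± 0.07 for T497A minus wild type (adjusted p = 0.0056), which is also the gene's test of the difference between this comparison and the TAC response within wild type. The changed residue itself was not read from these counts.

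Genes of the fetal heart and of stretched muscle rose. Of 24 natriuretic and fetal genes tested, 16 rose and 2 fell (18 and 1 with library totals, and 1 fall without T497A sham 3), with a median log2 fold change of 1.34, against 0.01 for all genes tested. Nppa, the gene of atrial natriuretic peptide, stood at 124, 103 and 241 CPM for T497A sham, against 2579, 2793 and 2415 CPM for wild-type TAC. Nppb, which encodes brain natriuretic peptide, stood at 33.4, 45.7 and 28.9 CPM under T497A sham, compared with 504, 599 and 471 CPM under wild-type TAC. The lowest wild-type TAC library exceeded the highest T497A sham library for both peptides, and the fold was 16.6 for Nppa (4.06 ± 0.40, adjusted p = 3.2e-05) and 14.6 for Nppb (3.87 ± 0.26, adjusted p = 1.8e-06). Ankrd1, a stretch-responsive protein of the titin-anchored I band and the nucleus, stood at 757, 936 and 907 CPM with T497A sham and at 5151, 5125 and 5102 CPM with wild-type TAC (2.56 ± 0.10, adjusted p = 7.4e-10). Acta1, the skeletal isoform of sarcomeric actin, stood at 115, 277 and 352 CPM for T497A sham, against 2619, 2456 and 2679.9 CPM for wild-type TAC (3.38 ± 0.35, adjusted p = 3.3e-05).

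Myh7, a slow myosin heavy chain gene of the fetal heart, stood at 755, 304 and 181 CPM under T497A sham, compared with 2305, 2133 and 2334 CPM under wild-type TAC (2.45 ± 0.49, adjusted p = 0.003). T497A sham 1 lay above the other 2 sham libraries for Myh7 and below them for Acta1, and without it the Myh7 difference was 3.22. Its adult counterpart Myh6 stood at 33322, 31947 and 31228 CPM with T497A sham and at 14528, 12214 and 15122 CPM with wild-type TAC and fell by 1.20 on the log2 scale. Further rises were those of Xirp2, an actin-binding protein of the intercalated disc (1.71 ± 0.09), Rcan1, an inhibitor and transcriptional target of calcineurin (1.63 ± 0.11), and Gdf15, a secreted stress cytokine (2.79 ± 0.17). The 2 members that fell were Myh7b (-0.86 ± 0.13), a myosin heavy chain gene, and Cryab (-0.27 ± 0.08), a small heat shock protein gene whose difference was 0.01 with library totals (adjusted p = 0.89).

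**Figure D1:**
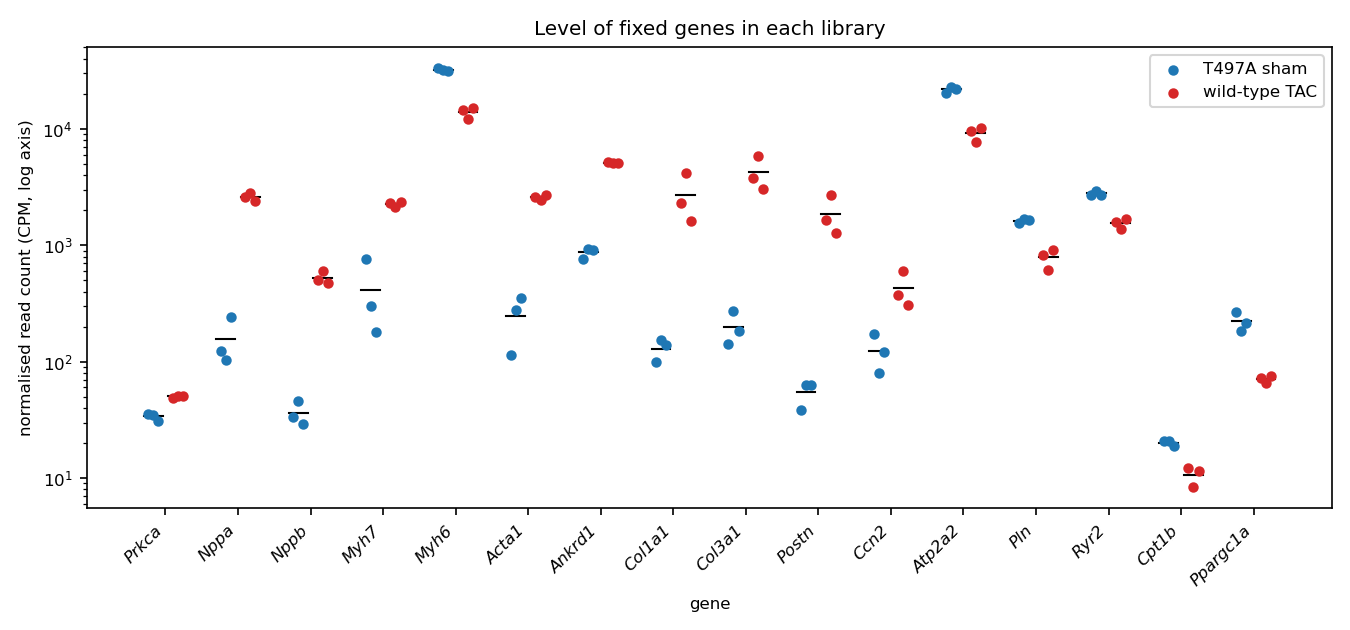
Level of 16 fixed genes (x axis) in CPM on a log axis (y axis) in each of the 3 T497A sham libraries (blue) and 3 wild-type TAC libraries (red), with a bar at each mean. The groups do not overlap for any gene drawn, and wild-type TAC is lower for Myh6, Atp2a2, Pln, Ryr2, Cpt1b and Ppargc1a.

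The promoters of the peptide and stretch genes are shown because these members rose together. Each line is the 250 bases before the transcription start, from RefSeq on GRCm38.p6, 5′ to 3′ on the gene's strand. Capitals mark matches, on either strand, to the M-CAT element of muscle promoters (CATTCC), the TATA box (TATAAA) or the CArG box, which serum response factor binds. The lines are Nppa on chr4:148000472-148000721 (plus strand), Nppb on chr4:147985650-147985899 (plus), Ankrd1 on chr19:36119845-36120094 (minus) and Acta1 on chr8:123894776-123895025 (minus).
Nppa: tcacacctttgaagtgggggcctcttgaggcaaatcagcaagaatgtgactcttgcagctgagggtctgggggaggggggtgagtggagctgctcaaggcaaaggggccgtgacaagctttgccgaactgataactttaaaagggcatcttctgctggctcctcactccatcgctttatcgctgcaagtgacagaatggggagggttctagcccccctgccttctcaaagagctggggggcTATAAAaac
Nppb: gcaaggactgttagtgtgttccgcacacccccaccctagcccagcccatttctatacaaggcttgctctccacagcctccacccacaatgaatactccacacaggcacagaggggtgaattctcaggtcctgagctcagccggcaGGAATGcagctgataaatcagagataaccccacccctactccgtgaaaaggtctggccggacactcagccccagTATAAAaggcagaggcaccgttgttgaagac
Ankrd1: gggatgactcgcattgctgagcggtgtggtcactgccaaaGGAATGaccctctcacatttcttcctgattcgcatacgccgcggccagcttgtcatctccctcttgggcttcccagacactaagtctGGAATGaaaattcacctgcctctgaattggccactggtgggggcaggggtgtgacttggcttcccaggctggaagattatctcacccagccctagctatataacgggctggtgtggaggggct
Acta1: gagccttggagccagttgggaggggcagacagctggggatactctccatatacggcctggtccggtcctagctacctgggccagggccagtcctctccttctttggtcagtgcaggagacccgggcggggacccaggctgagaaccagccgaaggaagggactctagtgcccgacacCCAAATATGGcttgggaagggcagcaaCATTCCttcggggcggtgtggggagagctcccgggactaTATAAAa
Nppb, Ankrd1 and Acta1 held a CATTCC match, 2 of them in Ankrd1, and Nppa held none in this window. Acta1 alone of these 4 held a CArG match. Of 32851 promoter windows of the same length, 12.6% held CATTCC, 12.4% held TATAAA and 1.47% held a CArG box. A match is a string of letters and says nothing of binding in these samples.

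Several of the largest autosomal rises had almost no reads in T497A sham. Bpifb4, a secreted lipid-binding family member, had 0 reads in all 3 T497A sham libraries and stood at 2.81, 1.25 and 3.18 CPM in wild-type TAC, at least 151-fold higher against a floor of 3 counts over the group. Muc15, a membrane mucin gene, likewise had 0 reads in T497A sham and 0.842, 2.13 and 0.5798 CPM in wild-type TAC, at least 73.3-fold higher. Adamts16, a metalloprotease gene, had 2 reads in T497A sham and 639 in wild-type TAC, a ratio of 259 (exact 95% interval 71.5 to 2146, counting error only). Sprr1a, a cornified-envelope protein also known from stressed heart muscle, stood at 0, 0.122 and 0 CPM for T497A sham, against 33.96, 65.6 and 22.4 CPM for wild-type TAC. The size of the rise rests on few sham reads for Sprr1a and Adamts16, whose fitted differences went from 9.83 to 14.38 without T497A sham 2 and from 7.79 to 10.53 without T497A sham 3. Without wild-type TAC 2, the highest library, the fitted difference was 6.56 for Adamts16 and 8.53 for Muc15, against 9.29 with it.

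Cthrc1, a secreted collagen-associated protein of activated fibroblasts, stood at 0.131, 0.3503 and 0.333 CPM under T497A sham, compared with 53.5, 115 and 31.1 CPM under wild-type TAC (7.92 ± 0.95, adjusted p = 0.00013). Cemip, which degrades hyaluronan, stood at 0.0327, 0.0609 and 0 CPM with T497A sham and at 7.75, 17.7 and 3.69 CPM with wild-type TAC, and wild-type TAC 2 was the highest for Sprr1a, Cthrc1 and Cemip alike. Igfbp2, an insulin-like growth factor binding protein, varied less, at 0.09798, 0.0305 and 0.0666 CPM for T497A sham, against 13.6, 15.5 and 11.7 CPM for wild-type TAC (7.68 ± 0.78). Col9a2, a collagen IX chain, stood at 0.425, 0.335 and 0.333 CPM under T497A sham, compared with 18.8, 19.9 and 16.7 CPM under wild-type TAC (5.66 ± 0.27, adjusted p = 3.3e-09). C1qtnf3, a secreted adipokine-type protein, Cdh3, P-cadherin, and Gpr176, an orphan receptor, rose with log2 fold changes of 7.03 ± 0.98, 6.11 ± 0.79 and 5.77 ± 0.43. Single libraries moved several of these sizes but ended no call. Without wild-type TAC 2 the differences were 7.27 for Cthrc1, 7.40 for Cemip, 6.0 for C1qtnf3 and 5.48 for Cdh3. Without T497A sham 2 they were 9.04 for Cemip and 5.51 for Cdh3, and without T497A sham 1 Cdh3 differed by 7.43. Hba-a2, an alpha globin gene, completed the 12 at 0, 0.0609 and 0.0666 CPM with T497A sham and at 4.33, 0.0787 and 5.004 CPM with wild-type TAC. Its wild-type TAC 2 value was close to the T497A sham values, and reads of its near-identical copy Hba-a1 may be split between the genes, so this rise is uncertain. The call for Hba-a2 was lost with limma-voom (adjusted p = 0.13). Hba-a2 stood at 6.36, 6.92 and 5.83 CPM in wild-type sham and at 6.36, 7.77 and 7.61 CPM in T497A TAC, so T497A sham was the lowest group. Against wild-type sham, wild-type TAC did not pass in the edgeR fit (-1.02 ± 0.84, adjusted p = 0.35).

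The largest falls mixed immune, metabolic and ion channel genes. Retnla, a secreted marker of alternatively activated macrophages, stood at 11.8, 6.25 and 8.804 CPM for T497A sham, against 0.241, 0.20997 and 0.227 CPM for wild-type TAC, 39.3-fold lower (-5.30 ± 0.29, adjusted p = 8.4e-09). Ces1d, a carboxylesterase that hydrolyses stored lipid, stood at 155, 153 and 153 CPM under T497A sham, compared with 9.69, 6.13 and 10.6 CPM under wild-type TAC, 17.5-fold lower (-4.13 ± 0.18). Ppl, the desmosome-linked protein periplakin, stood at 21.6, 20.7 and 20.8 CPM with T497A sham and at 1.26, 0.997 and 1.32 CPM with wild-type TAC (-4.14 ± 0.17). The T497A sham libraries lay close together for Ces1d and Ppl, and no group overlapped the other. Kcnv2, a modifier subunit of voltage-gated potassium channels, stood at 11.8, 17.2 and 16.4 CPM for T497A sham, against 1.14, 0.486 and 1.36 CPM for wild-type TAC (-3.92 ± 0.33).

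Other large falls were those of Inmt, an indole methyltransferase gene (-4.20 ± 0.38), Sbk3, a kinase gene (-4.11 ± 0.31), and Aqp4, a water channel (-3.31 ± 0.28). Upk3b, a marker of mesothelium, the outer lining of the heart, stood at 4.16, 1.28 and 3.89 CPM under T497A sham, compared with 0.241, 0.0525 and 0.151 CPM under wild-type TAC (-4.38 ± 0.94, adjusted p = 0.0031). Msln, another mesothelial marker, fell by 1.94 on the log2 scale, a call lost in 4 alternatives (adjusted p up to 0.062), while Wt1, also made there, did not pass (0.04 ± 0.21, adjusted p = 0.89). In whole ventricle, fewer cells of a type and less RNA per cell cannot be told apart, here and in the marker lists below. Rp1, best known from photoreceptors, and Lypd2 fell as well (-3.58 ± 0.43 and -3.22 ± 0.34).

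Matrix genes rose in large numbers. All 19 collagen chains tested rose (median 3.17), as did 39 of 46 matrix glycoprotein and crosslinking genes (median 2.79), while 2 of the 46 fell (none with library totals, and 1 without T497A sham 3, wild-type TAC 1 or wild-type TAC 3). Col1a1, a chain of the main fibrillar collagen, stood at 98.5, 152 and 138 CPM with T497A sham and at 2289.96, 4169.5 and 1626 CPM with wild-type TAC. Col3a1, the chain of collagen III, stood at 141, 274 and 182 CPM for T497A sham, against 3781, 5889 and 3049 CPM for wild-type TAC. Postn, the matricellular protein periostin of activated fibroblasts, stood at 38.2, 63.1 and 62.6 CPM under T497A sham, compared with 1637, 2676 and 1283 CPM under wild-type TAC, a fold of 34.1 (5.09 ± 0.48, adjusted p = 2.5e-05). Wild-type TAC 2 was the highest library for all 3 genes and wild-type TAC 3 the lowest of its group, yet no wild-type TAC value came near the sham range.

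Basement-membrane collagen varied less between libraries. Col4a1 stood at 379, 453 and 401 CPM with T497A sham and at 2050.2, 2233 and 1954 CPM with wild-type TAC (2.34 ± 0.10) and Col5a3, a minor fibrillar chain, at 13.8, 16.2 and 13.4 CPM for T497A sham, against 86.01, 75.6 and 82.6 CPM for wild-type TAC (2.49 ± 0.10). Fbn1, which builds microfibrils, stood at 40.4, 61.8 and 43.5 CPM under T497A sham, compared with 657, 899.9 and 573 CPM under wild-type TAC (3.87 ± 0.21), and Lox, the enzyme that crosslinks collagen, at 6.86, 4.98 and 6.32 CPM with T497A sham and at 184, 371 and 118 CPM with wild-type TAC (5.21 ± 0.57). The adhesion protein genes Tnc and Fn1 rose by 5.05 ± 0.47 and 3.88 ± 0.38, and Timp1, an inhibitor of matrix proteases, by 4.29 ± 0.43. Ccn2, a matricellular growth factor, stood at 171, 79.6 and 122 CPM for T497A sham, against 376, 603 and 306 CPM for wild-type TAC (1.79 ± 0.31, adjusted p = 0.0011).

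Fibroblast markers followed in part. Of 19 tested, 16 rose and 2 fell (median 1.21). Their summed level was 3621 to 4316 CPM in wild-type TAC and 2766 to 3505 CPM in T497A sham. Meox1 (3.34 ± 0.31), a transcription factor of activated fibroblasts, Fstl1 (3.44 ± 0.22), a secreted glycoprotein, and Runx1 (2.81 ± 0.28), another transcription factor, rose the most. Pdgfra and Tcf21, which mark resting fibroblasts, rose by 0.34 ± 0.09 and 1.05 ± 0.17. Gsn, an actin-severing protein abundant in resting fibroblasts, stood at 1692, 1979.6 and 2260.2 CPM under T497A sham, compared with 625, 454 and 679 CPM under wild-type TAC and fell by 1.75 on the log2 scale. The part of cell numbers in the matrix result was not tested.

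Genes of the adult contractile apparatus were lower as a group. Of 25 adult sarcomere genes tested, 20 fell and 1 rose (median -0.49). With library totals in place of TMM factors, 13 fell and 3 rose (median -0.21). Tnni3, cardiac troponin I, stood at 4773, 4628 and 4925 CPM with T497A sham and at 1792, 1327 and 1929 CPM with wild-type TAC (-1.50 ± 0.11). Cmya5, a costamere protein, stood at 1345, 1297 and 1303 CPM for T497A sham, against 458, 433 and 465 CPM for wild-type TAC (-1.54 ± 0.06), and Myl2, the ventricular regulatory light chain, at 7096, 7079 and 7078 CPM under T497A sham, compared with 3642, 2861 and 3901 CPM under wild-type TAC (-1.03 ± 0.10). Actc1, cardiac actin, and Mybpc3, cardiac myosin-binding protein C, did not pass, with 0.04 ± 0.11 and 0.05 ± 0.07, but rose with library totals, each by 0.33. The 8 genes used to check the cardiomyocyte label (Myh6, Myl2, Myl3, Tnnt2, Tnni3, Actc1, Ttn and Mybpc3) stood at 1327 CPM or more in all 6 libraries. Whole ventricle would give this as well, so the check cannot tell isolated cardiomyocytes from whole tissue.

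Calcium-cycling genes fell in 12 of 25 cases and rose in 3 (median -0.47), and with library totals 11 fell and 7 rose (median -0.17). Atp2a2, which pumps calcium back into the sarcoplasmic reticulum, stood at 20476, 23013 and 21886 CPM with T497A sham and at 9548, 7735 and 10088 CPM with wild-type TAC (-1.26 ± 0.10, adjusted p = 2.1e-07). Pln, phospholamban, which restrains that pump, stood at 1552, 1679 and 1662 CPM for T497A sham, against 830.2, 618 and 909 CPM for wild-type TAC (-1.05 ± 0.11). Ryr2, the calcium release channel, stood at 2721, 2920.4 and 2725 CPM under T497A sham, compared with 1578, 1391 and 1675 CPM under wild-type TAC (-0.85 ± 0.07). Hrc, a calcium-binding protein of the reticulum, fell by 1.53 and Cacna1c, the L-type channel pore, by 0.80 on the log2 scale. Slc8a1, the sodium-calcium exchanger, and Camk2d, a calmodulin-dependent kinase, were among the 3 that rose (0.28 ± 0.09 and 0.20 ± 0.08), but the call was lost in 3 alternatives for Slc8a1 (adjusted p up to 0.089) and in 14 for Camk2d (up to 0.2). Without T497A sham 1 a single member rose. Casq2, the calcium store protein calsequestrin, did not pass (0.06 ± 0.12) and rose by 0.34 with library totals.

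Potassium and sodium channels fell in 16 of 25 cases and rose in 1 (median -0.78). With library totals 14 fell and 3 rose (median -0.50). Kcnj3, a G-protein-gated channel subunit, stood at 155, 159.8 and 158 CPM with T497A sham and at 34.9, 34.3 and 36.2 CPM with wild-type TAC (-2.17 ± 0.06, adjusted p = 2.9e-11). Kcnd2 and Kcnip2, subunits of the transient outward current, fell by 1.97 and 0.95 on the log2 scale, the call for Kcnip2 being lost in 1 alternative (adjusted p = 0.057). Scn4b, a sodium channel beta subunit, stood at 27.8, 51.4 and 42.1 CPM for T497A sham, against 8.34, 10.9 and 8.47 CPM for wild-type TAC (-2.13 ± 0.21).

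Nuclear genes of oxidative energy metabolism were lower almost without exception. Of 40 genes of fatty acid uptake and oxidation, 38 fell and none rose (median -1.20). All 54 nuclear respiratory chain genes tested fell (median -0.82), and 36 of 38 citrate cycle and branched-chain breakdown genes fell too (median -0.88). With library totals, the falls numbered 35, 54 and 34. Cpt1b, the muscle gate of fatty acid entry into mitochondria, stood at 20.97, 20.7 and 18.96 CPM under T497A sham, compared with 12.1, 8.35 and 11.6 CPM under wild-type TAC (-0.92 ± 0.12). Ppargc1a, the co-activator of mitochondrial biogenesis, stood at 267, 184 and 214 CPM with T497A sham and at 71.8, 66.04 and 75.6 CPM with wild-type TAC (-1.64 ± 0.14, adjusted p = 2e-06).

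Hadha, an enzyme of long-chain oxidation, stood at 1809.7, 1852 and 1867 CPM for T497A sham, against 739, 657 and 765 CPM for wild-type TAC (-1.36 ± 0.07) and Acaa2, the thiolase of the same spiral, at 838, 945 and 905 CPM under T497A sham, compared with 260.3, 212 and 281 CPM under wild-type TAC (-1.84 ± 0.09). Pdk4, which switches off pyruvate oxidation, stood at 1834, 534 and 811 CPM with T497A sham and at 146, 158 and 145 CPM with wild-type TAC, with T497A sham 1 far above the other 2 sham libraries (-2.82 ± 0.49, and -2.17 without it). Cox7a1, the muscle isoform of a cytochrome oxidase subunit, stood at 649, 658 and 753 CPM for T497A sham, against 259.8, 205 and 268 CPM for wild-type TAC (-1.49 ± 0.09), and Bckdhb, of branched-chain keto acid breakdown, at 65.03, 56.5 and 66.3 CPM under T497A sham, compared with 23.2, 21.95 and 23.5 CPM under wild-type TAC (-1.45 ± 0.07). Of 13 mitochondrially encoded genes, 9 fell and none rose (median -0.78), and with library totals 5 fell. mt-Nd1, a complex I subunit, stood at 17630.1, 20626 and 20756 CPM with T497A sham and at 12351, 8170.4 and 13877 CPM with wild-type TAC, with wild-type TAC 2 the lowest.

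Glycolysis and glucose transport was mixed, with 12 falls and 3 rises among 25 genes. Its median was -0.18 with TMM factors and 0.10 with library totals, which also gave 6 falls and 11 rises. There were 5 rises without wild-type TAC 2 or T497A TAC 3. Slc2a4, the insulin-responsive glucose transporter, stood at 538, 549 and 549.7 CPM for T497A sham, against 233, 186 and 253 CPM for wild-type TAC (-1.28 ± 0.09), and Pfkm, muscle phosphofructokinase, fell by 1.07 on the log2 scale. Pfkfb1, a regulator of glycolytic flux, stood at 21.98, 18.9 and 17.5 CPM under T497A sham, compared with 1.67, 1.84 and 1.399 CPM under wild-type TAC (-3.57 ± 0.24), the largest fall of the list. Slc16a3, a lactate exporter, stood at 2.73, 2.94 and 2.596 CPM with T497A sham and at 10.6, 14.7 and 8.58 CPM with wild-type TAC (2.03 ± 0.21), the largest rise.

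Cell cycle genes rose in 31 of 33 cases (median 2.71). Cdk1, the mitotic kinase, stood at 0.914, 0.716 and 0.732 CPM for T497A sham, against 10.2, 13.3 and 8.95 CPM for wild-type TAC (3.78 ± 0.22), Ccna2, cyclin A2, at 1.404, 0.9901 and 0.999 CPM under T497A sham, compared with 13.3, 18.1 and 11.1 CPM under wild-type TAC (3.64 ± 0.25) and Prc1, of the central spindle, at 1.67, 1.45 and 1.12 CPM with T497A sham and at 14.5, 19.2 and 12.1 CPM with wild-type TAC (3.43 ± 0.24). Mcm6, of the replicative helicase, rose less, to 22.2, 25.97 and 21.3 CPM from 9.68, 8.01 and 8.92 CPM (1.38 ± 0.09). Cenpf, a large kinetochore protein that also binds microtubules at muscle nuclei, was the 1 member that fell. It stood at 225, 139.5 and 88.6 CPM for T497A sham, against 28.01, 26.5 and 26.9 CPM for wild-type TAC (-2.48 ± 0.33), and its T497A sham level is a large part of the list's summed level of 193 to 355 CPM in that group.

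Macrophage markers all passed, 16 of 20 upward and 4 downward (median 1.17). Their summed level was 612 to 979 CPM in wild-type TAC and 351 to 437 CPM in T497A sham. Cx3cr1, the fractalkine receptor, stood at 0.817, 2.01 and 2.16 CPM under T497A sham, compared with 20.2, 29.3 and 13.03 CPM under wild-type TAC (3.64 ± 0.46), Trem2, a lipid-sensing receptor, at 0.914, 1.07 and 1.05 CPM with T497A sham and at 8.69, 12.9 and 7.61 CPM with wild-type TAC (3.27 ± 0.25) and Ccr2, the receptor of recruited monocytes, at 3.27, 2.89 and 2.36 CPM for T497A sham, against 15.5, 21.9 and 14.96 CPM for wild-type TAC (2.62 ± 0.26). The 4 that fell, Timd4, Lyve1, Cd163 and Folr2, are markers of resident macrophages, and the call for Folr2 was lost in 7 alternatives (adjusted p up to 0.44). Lyve1 stood at 43.3, 36.1 and 44.4 CPM under T497A sham, compared with 17.3, 8.92 and 17.2 CPM under wild-type TAC (-1.51 ± 0.24) and Timd4 at 3.69, 1.34 and 2.36 CPM with T497A sham and at 0.882, 0.656 and 1.03 CPM with wild-type TAC (-1.52 ± 0.35). Lyve1 is also made by lymphatic endothelium.

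Lymphocyte and granulocyte markers were low in both groups, 19.6 to 22.95 CPM summed in wild-type TAC and 11.2 to 12.9 CPM in T497A sham. Of 18 tested, 3 rose and none fell, where 25.6% of all genes rose (7 of 18 rose with library totals), and the T cell genes Cd3d, Cd3e and Cd8a stood at 0.457 CPM or less in all 6 libraries. Csf3r, the neutrophil growth factor receptor, rose by 1.83 ± 0.26. Endothelial markers rose in 12 of 20 cases and fell in 4 (median 0.31), and their sums overlapped, 2645 to 3108 CPM against 2895 to 3094 CPM. Cdh5, the endothelial cadherin, rose by 0.77 ± 0.08, while Aqp1, a water channel of capillaries, stood at 666, 581 and 602 CPM for T497A sham, against 219.5, 163 and 242 CPM for wild-type TAC (-1.57 ± 0.13). Sele, E-selectin of activated endothelium, stood at 0.653, 0.792 and 0.832 CPM under T497A sham, compared with 3.67, 2.56 and 2.96 CPM under wild-type TAC (2.01 ± 0.20). Mural and smooth muscle markers gave 7 rises and 7 falls among 18, and 9 and 2 with library totals. That list shares Pln, its lowest member (-1.05), with the calcium list, and Kcnj8, Abcc9 and Des with other lists above. It is therefore not a measure of mural cells alone. Markers of other tissues, such as Schwann cells, fat, mesothelium and blood, rose in 2 of 19 cases and fell in 6. Over all genes 25.6% rose and 24.6% fell. The rises numbered 1 without T497A sham 1, T497A sham 2 or wild-type TAC 3. Summed levels were 871 to 1451 CPM against 1798 to 1867 CPM. The list also holds Ckm, the creatine kinase gene of muscle, heart included, whose difference lay between -0.81 and -0.41 in every alternative. The sums are therefore not a measure of other tissues alone.

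Atrial transcripts set 1 library apart. T497A sham 3 had 261 CPM of Myl7, the atrial regulatory light chain, against 63.6 and 74.4 CPM in the other 2 sham libraries and 35.7, 16.6 and 45.1 CPM in wild-type TAC. Sln, the atrial calcium pump inhibitor sarcolipin, stood at 10.97, 15.8 and 68.6 CPM with T497A sham and at 5.32, 3.86 and 7.29 CPM with wild-type TAC, and Myl4, the atrial essential light chain, at 72.5, 77.1 and 324 CPM for T497A sham, against 53.6, 25.9 and 66.02 CPM for wild-type TAC. None of these 3 passed, with adjusted p of 0.091, 0.055 and 0.13. T497A sham 3 also had the highest Nppa of its group, and without it the Nppa difference was 4.51 (adjusted p = 1.4e-05). Without it the differences were -1.09 for Myl7, -1.29 for Sln and -0.63 for Myl4. Myl7 passed in 4 alternatives and Sln in 7. Of 12 atrial markers tested, 2 rose and 3 fell, where 25.6% and 24.6% of all genes did (4 and 2 with library totals). Leaving out a library, other than T497A sham 3 and wild-type TAC 2, left 1 rise.

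Of 23 protein kinase C isoforms, relatives and priming kinases, 9 rose and 6 fell (median 0.02), where 25.6% and 24.6% of all genes did, and with library totals 13 rose and 2 fell. Prkcb, a conventional isoform abundant in immune cells, stood at 1.63, 2.15 and 1.58 CPM under T497A sham, compared with 5.72, 7.72 and 3.84 CPM under wild-type TAC (1.69 ± 0.24), and Prkcd, a calcium-independent isoform, at 11.8, 11.97 and 12.8 CPM with T497A sham and at 26.2, 41.2 and 22.7 CPM with wild-type TAC (1.30 ± 0.17). Prkce, a calcium-independent isoform of cardiac muscle, stood at 52.4, 50.97 and 67.6 CPM for T497A sham, against 36.8, 33.1 and 35.6 CPM for wild-type TAC (-0.70 ± 0.09), and Prkcq fell by 1.24 on the log2 scale.

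Among 25 genes of protein phosphatase 1, protein kinase C substrates and Gq signalling, 11 rose and 5 fell, and with library totals 20 rose and 4 fell. Marcks, a classic protein kinase C substrate, stood at 38.8, 42.3 and 39.7 CPM under T497A sham, compared with 132, 169 and 128 CPM under wild-type TAC (1.83 ± 0.11). Its relative Marcksl1 stood at 2.97, 3.69 and 4.73 CPM with T497A sham and at 19.02, 27.2 and 16.9 CPM with wild-type TAC (2.47 ± 0.19), again without overlap. Plcb1, the phospholipase that Gq activates, rose by 1.14 ± 0.11. Ppp1r3a, which targets the phosphatase to glycogen, stood at 386, 365 and 328 CPM for T497A sham, against 168, 156 and 169 CPM for wild-type TAC (-1.13 ± 0.07), and Rgs2, a brake on Gq, at 148, 85.99 and 89.3 CPM under T497A sham, compared with 30.2, 20.6 and 33.1 CPM under wild-type TAC (-1.94 ± 0.26).

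In the angiotensin, endothelin and adrenergic list, 7 genes rose and 11 fell of 24 (median -0.31), and with library totals 9 rose and 6 fell (median -0.03). Ace, which makes angiotensin II, stood at 62.7, 86.7 and 90.1 CPM with T497A sham and at 222, 225 and 216 CPM with wild-type TAC (1.47 ± 0.11). Corin, the protease that matures atrial natriuretic peptide, stood at 502, 410.02 and 407 CPM for T497A sham, against 194, 153 and 208 CPM for wild-type TAC (-1.25 ± 0.11), opposite to its substrate's gene Nppa. The alpha-1 receptor genes Adra1a and Adra1b fell by 1.44 and 0.91 on the log2 scale, and the beta-1 receptor Adrb1 did not pass (-0.28 ± 0.17, adjusted p = 0.2).

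Of 25 TGF-beta and BMP genes, 14 rose and 4 fell (median 0.62), or 17 and 3 with library totals. The ligands Tgfb1, Tgfb2 and Tgfb3 rose by 1.05 ± 0.08, 2.19 ± 0.13 and 2.26 ± 0.27, and the receptors Tgfbr1 and Tgfbr2 by 0.84 ± 0.13 and 0.89 ± 0.09. Gdf6, a BMP-family ligand, stood at 0.833, 0.213 and 0.865 CPM under T497A sham, compared with 11.9, 17.3 and 8.48 CPM under wild-type TAC (4.31 ± 0.48). Tgfbr3, the co-receptor betaglycan, fell by 1.04 and Mstn, the growth inhibitor myostatin, by 2.67 on the log2 scale.

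Of 24 tubulin and chaperone genes, 8 rose and 7 fell, against 25.6% and 24.6% of all genes, and with library totals 12 rose and 3 fell. Tubb3, a beta isotype best known from neurons, stood at 0.523, 0.731 and 0.666 CPM with T497A sham and at 5.76, 6.22 and 5.85 CPM with wild-type TAC (3.21 ± 0.19). Tubb2b, another such isotype, stood at 4.49, 3.29 and 2.397 CPM for T497A sham, against 11.6, 14.2 and 9.605 CPM for wild-type TAC (1.80 ± 0.25). Tuba4a and Tuba8, the alpha isotypes abundant in adult muscle, fell by 1.32 and 1.27 on the log2 scale. The chaperones Bag3 and Hspa8 fell as well (-0.41 ± 0.09 and -0.51 ± 0.14), calls lost with library totals for Bag3 (adjusted p = 0.26) and in 3 alternatives for Hspa8 (up to 0.25).

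Immediate early genes rose in 15 of 26 cases and fell in 2 (median 0.74), or 18 and none with library totals. Falls numbered 0 or 1 without T497A sham 1, T497A sham 3 or any 1 wild-type TAC library. Egr1, a growth-induced transcription factor, stood at 9.37, 11.5 and 11.8 CPM under T497A sham, compared with 38.6, 46.4 and 38.02 CPM under wild-type TAC (1.91 ± 0.11), and its relatives Egr2 and Egr3 rose by 3.86 ± 0.47 and 3.05 ± 0.36. Chemokine and interleukin genes rose in 16 of 29 cases and fell in 5 (2 to 3 with library totals, a stricter filter, or without T497A sham 3, wild-type TAC 1 or wild-type TAC 3). Differences in that list ran from -3.43 to 4.29 (median 0.71). Il6, an inflammatory cytokine, stood at 0.0653, 0.0609 and 0 CPM with T497A sham and at 0.682, 1.44 and 0.479 CPM with wild-type TAC (4.29 ± 0.81), and Il1b, another, at 0.09798, 0.152 and 0.0333 CPM for T497A sham, against 1.296, 2.91 and 0.605 CPM for wild-type TAC (4.04 ± 0.69). Both were scarce in either group. Without wild-type TAC 2 the difference was 3.29 for Il1b and 3.18 for Egr2. Interferon and antigen presentation genes rose in 6 of 26 cases, a share near the 25.6% of all genes, and fell in none, and 11 rose without T497A sham 1. Their summed level varied most within T497A sham, 935 to 2251 CPM.

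The list of endoplasmic reticulum stress and ATF4 target genes gave 8 rises and 9 falls among 27, beside shares of 25.6% and 24.6% over all genes, and 12 and 5 with library totals. Herpud1, of protein degradation at the reticulum, stood at 531, 438 and 508 CPM under T497A sham, compared with 123, 99.9 and 133 CPM under wild-type TAC (-2.05 ± 0.10), and the chaperone Hspa5 at 729, 728 and 744 CPM with T497A sham and at 462, 479 and 458 CPM with wild-type TAC (-0.65 ± 0.08). The rises included Mthfd2 and Phgdh, of one-carbon and serine synthesis (1.52 ± 0.18 and 1.25 ± 0.28). Its median was -0.06, and 0.23 with library totals.

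Of 25 antioxidant genes, 7 rose and 11 fell (12 and 10 with library totals), and the median changed sign between scalings, -0.11 with TMM factors and 0.17 with library totals. Gsta3, a glutathione transferase, stood at 16.97, 16.8 and 20.02 CPM for T497A sham, against 2.299, 1.82 and 3.15 CPM for wild-type TAC, 7.38-fold lower (-2.88 ± 0.16), and Gpx1, a glutathione peroxidase, rose by 0.89 ± 0.06. Of 19 clock genes, 9 fell (6 with library totals) and 4 rose (2 without T497A sham 3, wild-type TAC 2 or wild-type TAC 3). Over all genes 24.6% fell and 25.6% rose. Hlf and Tef, transcription factors of clock output, fell by 1.12 and 0.91 on the log2 scale, and Arntl, the core activator, rose by 0.98 ± 0.37 (adjusted p = 0.043), a call lost in 9 alternatives (up to 0.15).

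Cytosolic ribosomal protein genes hardly moved, and their direction depended on scaling. With TMM factors 18 of 50 fell and 2 rose (1 without T497A sham 2 or wild-type TAC 2), with library totals 1 fell and 31 rose. Rpl3l, the striated muscle paralog of Rpl3, stood at 333, 307 and 323 CPM under T497A sham, compared with 56.5, 68.6 and 53.5 CPM under wild-type TAC (-2.43 ± 0.08, adjusted p = 1.1e-10), and Rpl3 itself at 71.6, 73.5 and 72.8 CPM with T497A sham and at 133, 126 and 133 CPM with wild-type TAC (0.85 ± 0.06).

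**Figure D2:**
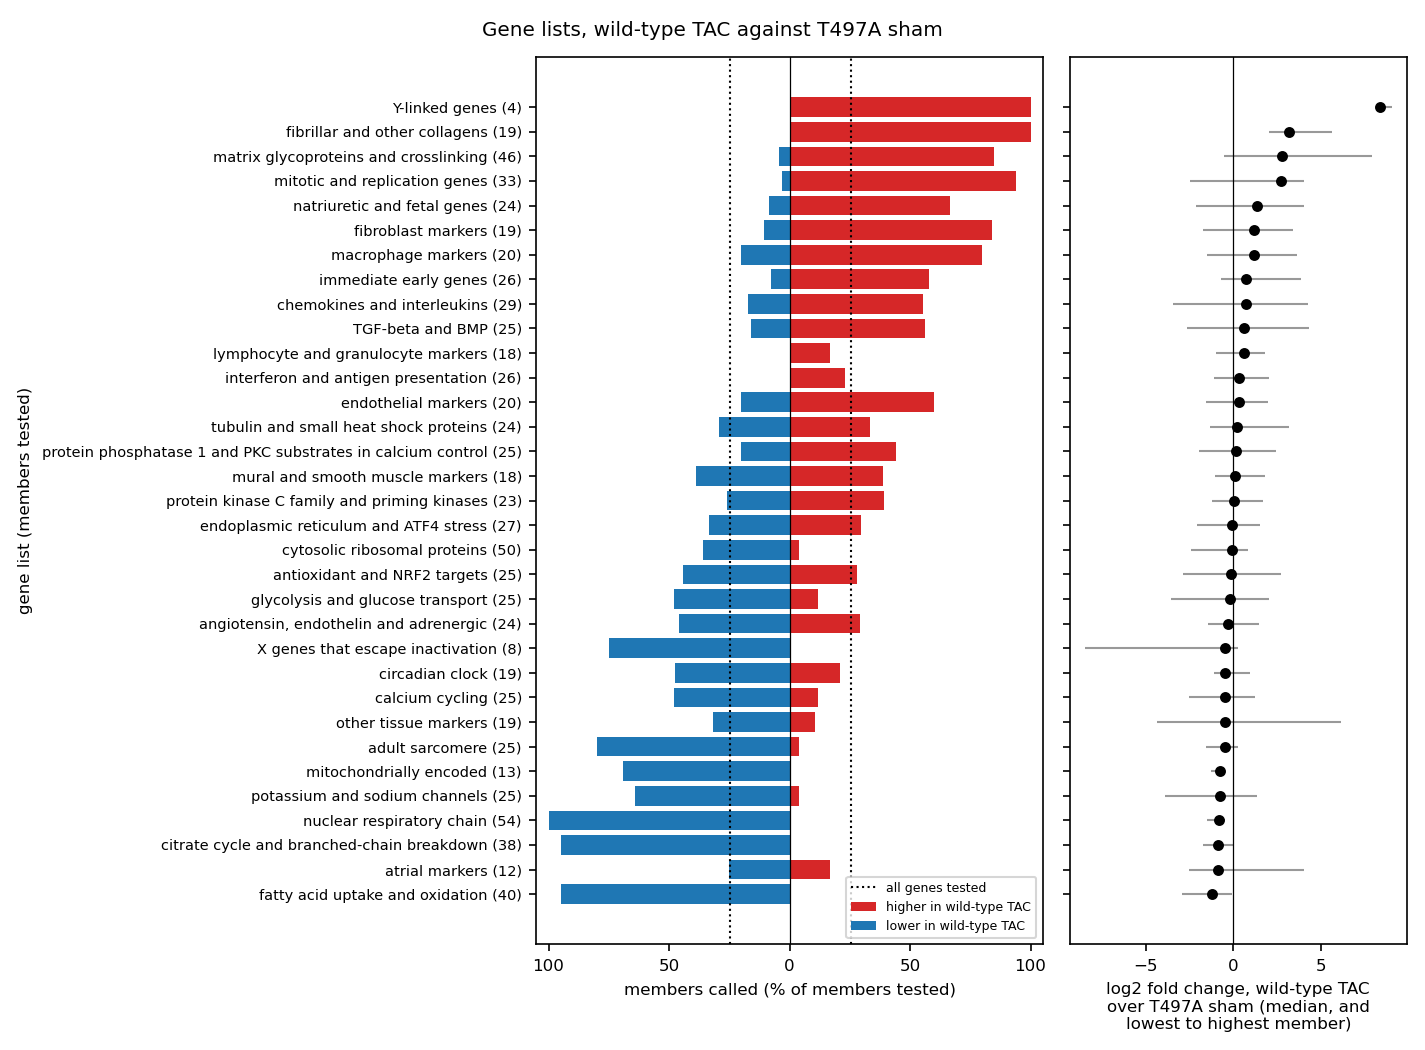
Left, share of tested members called higher (red, to the right) or lower (blue, to the left) in wild-type TAC than in T497A sham for each of 33 gene lists (y axis, members tested in brackets), with dotted lines at the shares of all genes tested, 25.6% and 24.6%. Right, the list's median log2 fold change (point) and its lowest to highest member (line), from -1.20 for fatty acid genes to 3.17 for collagens among the autosomal lists.

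Setting these values beside the TAC responses within each genotype shows which genes depend on the choice of sham group. These comparisons share libraries, so only each gene's own values and the test of the difference between the sham groups are given. TAC against sham called 49.9% of genes within wild type and 24.4% within T497A, and T497A sham against wild-type sham called 5.79%. Postn differed by 5.09 ± 0.48 here and by 5.06 ± 0.47 against wild-type sham, and its sham groups did not differ beyond their error (adjusted p = 0.98). Nppb differed by 3.87 ± 0.26 here and by 2.07 ± 0.24 against wild-type sham. Its sham levels were 35.996 ± 8.66 CPM in T497A and 125 ± 35.8 CPM in wild type (SD, n = 3), a difference of -1.80 ± 0.24 (adjusted p = 0.0033). Nppa went the other way, 4.06 ± 0.40 here and 4.88 ± 0.42 against wild-type sham, but its sham groups did not pass (adjusted p = 0.25).

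Ankrd1 had its lower sham level in T497A as well (-0.86 ± 0.10, adjusted p = 0.00019), so that it rose by 2.56 here and by 1.70 within wild type. Egr1 differed by 1.91 ± 0.11 here and by 0.78 ± 0.11 within wild type (sham groups -1.13 ± 0.11, adjusted p = 6.6e-05). Among the genes that fell, Gsta3 differed by -2.88 ± 0.16 here and by -1.28 ± 0.16 within wild type (sham groups 1.61 ± 0.16, adjusted p = 4e-05). Herpud1 behaved alike, with -2.05 ± 0.10 and -1.31 ± 0.10 (sham groups 0.74 ± 0.10, adjusted p = 0.00067). Kcnj3 and Ppp1r3a fell here by 2.17 and 1.13 and within wild type by 1.76 and 0.63, and their sham groups differed by 0.40 ± 0.06 and 0.50 ± 0.07 (adjusted p = 0.0016 and 0.00082). In each of these genes T497A sham lay farther from wild-type TAC than wild-type sham did. Genes were named partly by small p in this comparison, which favours that order, and Nppa went the other way.

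**Figure D3:**
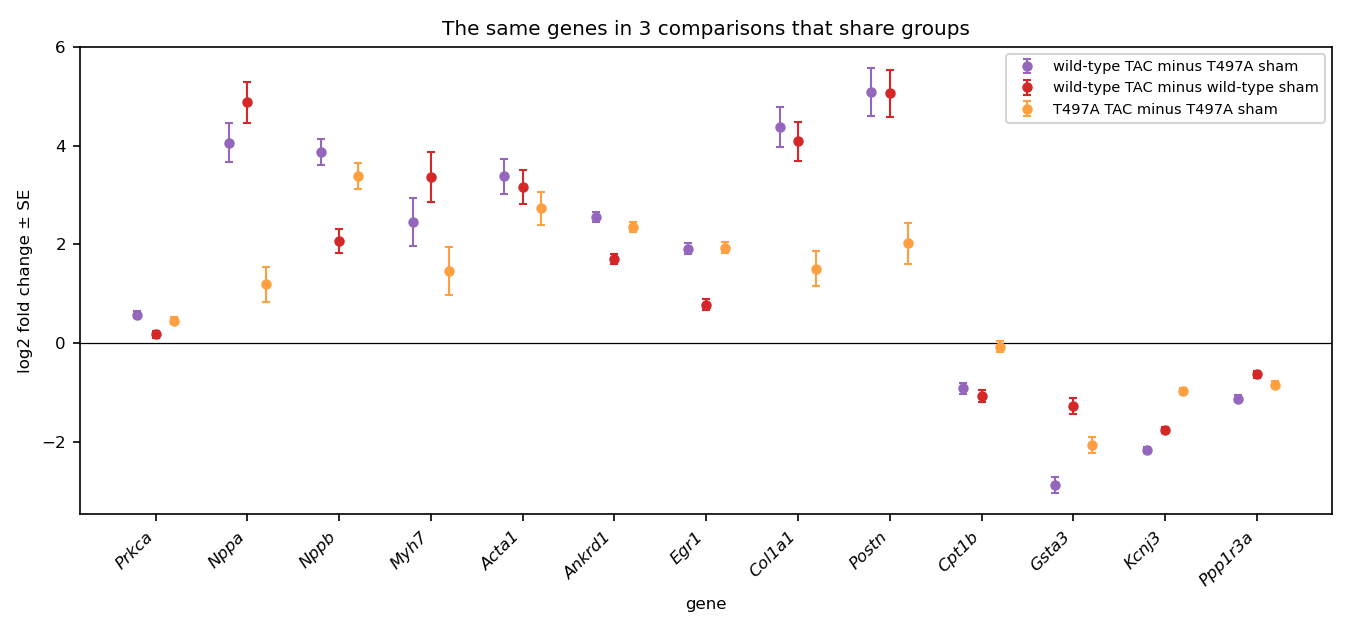
Log2 fold change ± SE (y axis) of 13 genes (x axis) in wild-type TAC minus T497A sham (purple), wild-type TAC minus wild-type sham (red) and T497A TAC minus T497A sham (orange). Nppb, Ankrd1, Egr1 and Gsta3 differ between the purple and red points, and the Postn points of these colours nearly coincide at 5.09 and 5.06.

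On a linear CPM scale, most but not all of a set of autosomal transcripts placed wild-type TAC nearer to T497A sham. The set was chosen from both sham groups, as the 104 transcripts called between them with at least a 4-fold difference. Of these, 83 were higher and 21 lower in T497A sham. Both sham groups chose them, so counts against either sham group are descriptions. Positions were taken on a linear CPM scale with 0 at the wild-type sham mean and 1 at the T497A sham mean. The median position of the wild-type TAC means was 0.685 (quartiles 0.424 and 1.02). Of the 104 positions, 71 were above 0.5 and 62 between 0.5 and 1.5, so some lay well past T497A sham. The libraries gave medians of 0.741, 0.562 and 0.772. T497A TAC had a median of 0.0321, with 4 of 104 above 0.5, although it carries the genotype label of T497A sham. Of the 104, 63 were not called between wild-type TAC and T497A sham and 58 differed by less than 2-fold, where 50.2% of all genes were called. The 2 directions differed. Of the 83 higher in T497A sham, 58 were not called, 21 were lower and 4 higher in wild-type TAC. Of the 21 lower in T497A sham, 16 were called higher in wild-type TAC and 5 were not called. The median log2 difference of wild-type TAC for these 21 was 2.38 from T497A sham but -1.33 from wild-type sham. Their median position was 0.611, so on the log2 scale they lay nearer to wild-type sham, opposite to the CPM scale. Against wild-type sham, wild-type TAC differed in 81 of 104, where 49.9% of all genes were called. T497A TAC differed from T497A sham in 92 (24.4% of all genes) and from wild-type sham in 7 (10% of all genes).

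Zfp990, a zinc finger gene, shows the pattern at 0, 0 and 0 CPM in wild-type sham, 1.06, 0.6702 and 1.33 in T497A sham, 1.27, 1.34 and 1.15 in wild-type TAC and 0.0152, 0.246 and 0.0429 in T497A TAC. Wild-type TAC and T497A sham overlapped (0.29 ± 0.52, adjusted p = 0.67). Drc3, a gene of motile cilia, was low in the groups compared, with 0.719, 0.472 and 0.616 CPM in T497A sham and 0.869, 1.76 and 0.693 in wild-type TAC, against 4.54, 4.42 and 5.02 in wild-type sham and 4.08, 3.78 and 3.33 in T497A TAC. Rab37, a small GTPase gene of vesicle traffic, stood at 0.327, 0.152 and 0.166 CPM in T497A sham and 0.347, 0.564 and 0.391 in wild-type TAC. It reached 1.51 ± 0.219 in wild-type sham and 1.55 ± 0.104 in T497A TAC (SD, n = 3). Both were called here but lay much nearer to T497A sham than to wild-type sham, and each call was lost in 5 alternatives (adjusted p up to 0.21 for Drc3 and 0.1 for Rab37).

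Other members did not follow. Rergl, a Ras-like gene of smooth muscle, stood at 1.6004, 0.762 and 1.12 CPM with T497A sham but only 0.187, 0.157 and 0.151 CPM with wild-type TAC (-2.80 ± 0.47, adjusted p = 0.00029). Gpr179, an orphan receptor gene, lay between the sham levels at 5.59, 2.44 and 5.72 CPM, against 8.43, 8.85 and 13.6 in T497A sham and 0.138 ± 0.0657 in wild-type sham. Its wild-type TAC 2 value was the lowest of the group, and its difference from T497A sham passed in 8 alternatives. The non-coding transcript AA465934, chosen after its values were seen, stood at 22.5, 1.02 and 27.4 CPM in wild-type TAC, against 20.6 to 42.9 in T497A sham and 0.81 to 1.71 in wild-type sham. Wild-type TAC 2 thus sat with wild-type sham for AA465934 and with T497A sham for Hba-a2. Many members are pseudogenes or unnamed transcripts whose reads may be split with near-identical copies, so single members are uncertain. The cause of the shared levels was not tested.

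**Figure D4:**
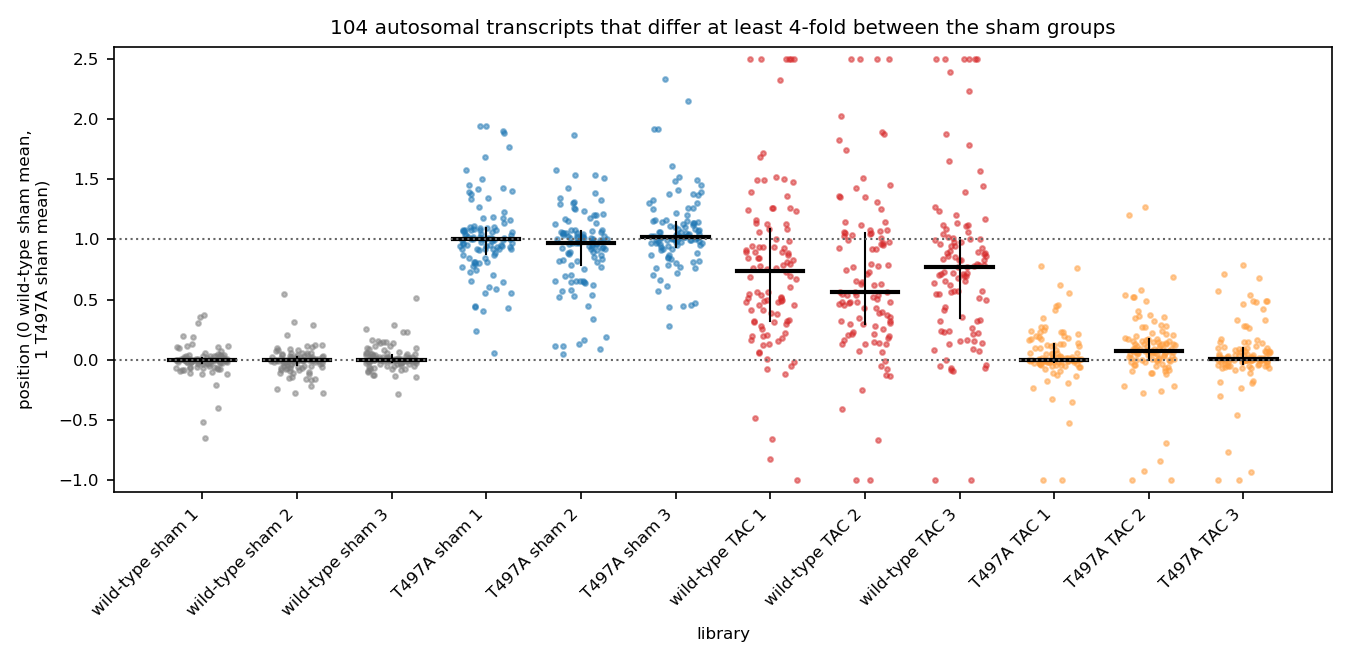
Position of each of the 12 libraries (x axis) for 104 autosomal transcripts (points) on the scale from the wild-type sham mean (0) to the T497A sham mean (1), with the median (thick bar) and quartiles (thin line). Values beyond -1 or 2.5 are drawn at those limits, the wild-type TAC medians are 0.741, 0.562 and 0.772, and the T497A TAC medians lie between 0.000816 and 0.0746.

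Chromosome 11, which holds Prkca and 1410 of the 17699 genes tested, carried 33 of the 104 transcripts (31.7%). The next chromosome, 7, with 1390 genes tested, carried 9. Of the 33, 15 lay within 20 Mb of Prkca and 17 beyond 30 Mb. Per gene tested, that is 2.74% of 547 genes within 20 Mb and 2.34% of 726 beyond 30 Mb. Within 5 Mb it was 5 of 85 (5.88%). The median position of wild-type TAC was 0.831 for the 15 nearest and 0.602 for the 17 farthest. In the comparison itself chromosome 11 did not stand out, with 49.7% of its 1410 tested genes called, within the 43.4 to 55.2% of the autosomes.

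Of 3 transcripts near Prkca that were picked after their values were seen, the non-coding 2610035D17Rik, 4.98 Mb away, stood at 1.48, 2.24 and 1.01 CPM in wild-type TAC, against 0.12 to 0.20 in T497A sham and 4.14 to 7.28 in wild-type sham. Cd300lf, an immune receptor gene 6.99 Mb from Prkca, rose past both sham groups, to 3.13, 3.67 and 2.18 CPM from 0.64, 0.49 and 0.52 CPM in T497A sham. Its neighbour Cd300ld stood at 3.66, 8.02 and 2.00 CPM in wild-type TAC, at 1.44, 1.00 and 0.92 CPM in T497A sham and at 3.79 to 6.38 CPM in wild-type sham, and its difference from T497A sham was 2.02, or 1.34 without wild-type TAC 2. These 3 genes thus took different places relative to the sham groups within a few megabases. Reads of these related Cd300 genes may be split between copies, which was not tested.

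**Figure D5:**
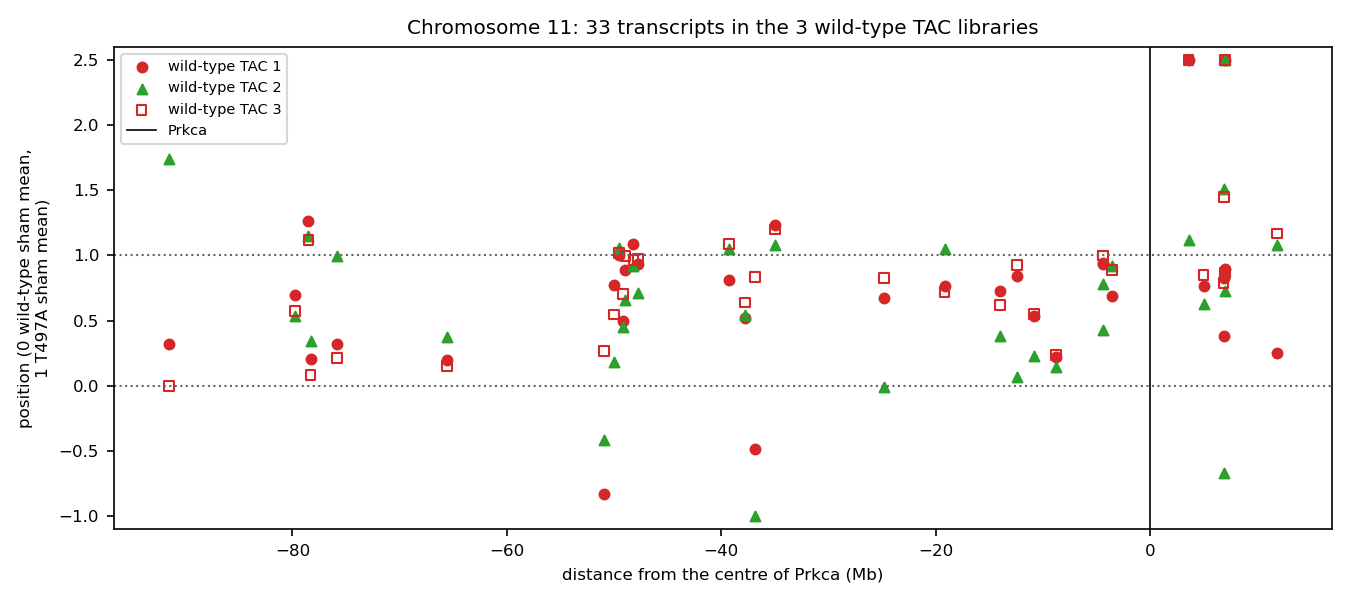
Position of 33 chromosome 11 transcripts in the 3 wild-type TAC libraries (y axis, 0 at the wild-type sham mean and 1 at the T497A sham mean) against distance from the centre of Prkca in Mb (x axis, vertical line at Prkca). Values beyond -1 or 2.5 are drawn at those limits (6 of 99), and wild-type TAC 2 (triangles) departs from libraries 1 and 3 at several transcripts.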

How the data were processed

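Left ventricular RNA of 12 mouse libraries was sequenced, 3 in each of 4 groups. The authors deposited raw read counts per gene, a whole-number count for each of 55401 gene identifiers. Per the submitters' processing notes the tools were Trim Galore 0.6.4, STAR 2.7.3a, featureCounts of Subread 1.6.3 and limma 3.50.3, and the builds named were mm10 and GRCh38, with no role given. Strand setting, annotation release and multi-mapping treatment were not given in the sources used here. Overlapping, antisense and near-identical genes may share reads. GENCODE M21 (GRCm38) supplied the names and positions of genes. It matched 54349 identifiers with their version and 792 without it, and left 260 unmatched.

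Counts were fitted with edgeR 4.0.16 in R 4.3.3 (filterByExpr, TMM, robust quasi-likelihood F test), as 4 group means over all 12 libraries, which had 58932759 to 72594085 counts each. Adjusted p-values are Benjamini-Hochberg values over all genes tested. Standard errors are the log2 fold change divided by the square root of F. On simulated data with known changes the script recovered 64.2% of 1.5-fold, 80.6% of 2-fold and 100% of 4-fold changes. Of the calls made there, 5.23% were false. That simulation did not test the choice of scaling. Alternatives used DESeq2 1.42.0, limma-voom 3.58.1, other scalings and filters, a replicate block and each library left out in turn. Genes named are a fixed set, the 12 largest autosomal rises and falls that reach a mean of 1 CPM in a group with no library overlap, up to 4 called members of smallest p per list, the 6 largest sham differences in each direction, and list members described by role; a few genes the rule names are not reported here. Members and lists were chosen with earlier results of these data known. The same replicate numbers did not pair the libraries (deviation correlations 0.0224, -0.113 and 0.0304).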

Additional observations from a re-analysis of the deposited data

How the results depend on the processing

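The difference of 165 genes of the text was recomputed under 23 alternatives (at least 21 for each gene), and 145 kept their direction and their side of the threshold in each one that tested them. Cryab changed sign with library totals (0.01, adjusted p = 0.89), and 18 genes crossed the threshold in at least 1 alternative, Cryab among them. Actc1 and Casq2, also among the 18, changed sign too, ranging from -0.05 to 0.33 and from -0.05 to 0.34. Cd8a and Wt1, which were not called, changed sign as well. Scaling moved the counts most: with library totals in place of TMM factors, 7624 genes were higher and 2193 lower, and 2901 and 598 at 2-fold or more. Requiring 1 CPM in 6 libraries left 13079 genes tested and 641 of them lower by 2-fold or more. Leaving out each library in turn gave 4106 to 4548 higher genes and 3858 to 4393 lower genes, and 1580 to 1981 and 861 to 1050 at 2-fold or more. With the replicate block, 4410 genes were higher and 4214 lower, 1851 and 959 at 2-fold or more, and the block changed no count by more than 1.5 times. The DESeq2 test gave 4573 higher and 4630 lower genes. The genes that crossed are named with their values beside the results, and Hba-a2 reached 0.13 with limma-voom. The causes were not tested. Depth limits the transcripts under 1 CPM that the sham comparison selected, where single reads move a position.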
